A study of Homo sapiens with 12 samples.

Results

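The interferon response genes are 35 genes that type I interferon is known to induce, taken by gene symbol from the platform's annotation of the array rows. A named row was found for 34 of them, out of 17687 genes measured. STAT2, a transcription factor that acts with IRF9, had no named row and is not analysed here. Total RNA was measured on 12 single-colour Affymetrix arrays, 3 for each of 4 groups. The groups are the prostate cancer cell lines LNCaPabl-Abi and LNCaPabl-Enza, each given either DMSO, the vehicle (Abi_Ctrl and Enza_Ctrl), or 100 nM dexamethasone, a synthetic glucocorticoid (Abi_Dex and Enza_Dex), for 24 h. Both names derive from LNCaP, an epithelial line grown from a prostate cancer metastasis, and the labels describe culture of LNCaP in RPMI 1640 medium with fetal calf serum. The labels leave the terms Abi and Enza unexplained and do not say whether a line is a clone. They also do not say whether replicates are separate cultures, and p-values then cover the spread of these arrays alone, which may be technical.

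Type I interferons bind a receptor on the cell surface, and the kinases JAK1 and TYK2 then activate STAT2 and its partners. A complex that holds STAT2 and IRF9 binds the interferon-stimulated response element in the promoters of target genes. The products of these genes bind viral RNA, block viral entry and budding, attach the ubiquitin-like protein ISG15 to other proteins, or feed back on the pathway. Some of them are also expressed at a low level without interferon, and the extent differs between cancer cell lines. Glucocorticoids such as dexamethasone act through the glucocorticoid receptor and are known to dampen interferon-driven transcription in immune cells. The labels give no interferon treatment in any group, so the values here are the level of these genes in culture with and without dexamethasone.

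The promoters of 7 members are shown first, so that the genes called different between the lines that have an entry (PARP14, IFITM1, IFITM3 and OAS1) can be set beside DTX3L, IFIT1 and ISG15, which were not called. Sequences are from RefSeq on GRCh38.p14, 5′ to 3′ on the gene's own strand, from 150 bases before the annotated start to 10 bases after it. Capitals mark the core of the interferon-stimulated response element, which is GAAA, any 2 bases, then GAAA, or TTTC, any 2 bases, then TTTC where it lies on the opposite strand. The windows are chr3:122680689-122680848 (plus strand) for PARP14, chr11:313890-314049 (plus strand) for IFITM1, chr11:320851-321010 (minus strand) for IFITM3, chr12:112906812-112906971 (plus strand) for OAS1, chr3:122564188-122564347 (plus strand) for DTX3L, chr1:1013347-1013506 (plus strand) for ISG15 and chr10:89392473-89392632 (plus strand) for IFIT1.
PARP14: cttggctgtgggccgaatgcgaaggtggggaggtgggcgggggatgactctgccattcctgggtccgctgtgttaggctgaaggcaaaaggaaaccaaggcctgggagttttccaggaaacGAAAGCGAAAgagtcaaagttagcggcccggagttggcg
IFITM1: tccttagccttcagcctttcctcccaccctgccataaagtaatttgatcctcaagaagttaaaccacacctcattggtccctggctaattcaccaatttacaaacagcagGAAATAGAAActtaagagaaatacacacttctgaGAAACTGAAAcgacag
IFITM3: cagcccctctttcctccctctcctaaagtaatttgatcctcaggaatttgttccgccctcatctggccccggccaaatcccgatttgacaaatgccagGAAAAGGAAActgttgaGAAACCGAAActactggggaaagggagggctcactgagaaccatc
OAS1: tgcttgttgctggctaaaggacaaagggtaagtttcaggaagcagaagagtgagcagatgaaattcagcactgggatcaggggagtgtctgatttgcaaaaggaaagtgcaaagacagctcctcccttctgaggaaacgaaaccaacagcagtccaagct
DTX3L: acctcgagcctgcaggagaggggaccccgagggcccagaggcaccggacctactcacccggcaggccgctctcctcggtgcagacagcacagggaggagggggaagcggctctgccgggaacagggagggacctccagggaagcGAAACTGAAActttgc
ISG15: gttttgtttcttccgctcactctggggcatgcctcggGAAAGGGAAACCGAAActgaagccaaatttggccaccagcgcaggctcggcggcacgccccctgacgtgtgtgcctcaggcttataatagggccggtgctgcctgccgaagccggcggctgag
IFIT1: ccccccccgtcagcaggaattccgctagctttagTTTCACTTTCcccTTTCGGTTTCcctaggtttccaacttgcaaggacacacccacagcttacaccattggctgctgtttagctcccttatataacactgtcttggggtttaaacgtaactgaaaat

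The core begins 29 bases before the start of PARP14 and 6 bases before that of DTX3L. IFITM1 holds it at 40 and 6 bases before the start, and IFITM3 at 52 and 35. In ISG15 the matches at 113 and 107 bases before the start overlap each other, and in IFIT1 both matches, at 116 and 103 bases, are on the opposite strand. The window of OAS1 has no exact match to these letters. PARP9 and DTX3L lie head to head on chromosome 3, and the match in a PARP9 window is the same stretch of genome as the match in DTX3L (chr3:122564332-122564341).

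Across the members, 27 had an entry in the RefSeq promoter table, and 21 of these (77.8%) held the core on either strand within 250 bases before to 50 bases after a start. The same letters were found in 1255 of 35116 promoter windows of that length (3.57%), and in 589 of 14250 measured genes with an entry (4.13%). The entries of IRF9, OAS1, CMPK2, XAF1, HERC6 and IFI35 had no match, and IRF7, IFIT2, OAS2, OASL, MX2, IFITM2 and USP18 had no entry. Genes with a clear signal on the arrays and genes without one both held it: 6 of 7 members with an entry that were above the negative controls on every array described below, and 10 of 12 that were above them on none. A match is a description of the letters, not evidence of binding.

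The array Enza_Ctrl replicate 2 differed from all others in its control rows and correlations. Its median Pearson r with the rest was 0.856, against 0.986 to 0.990 for the other 11 arrays, and its background probes averaged 5.50 against 4.5 to 4.6 (log2). Counts of calls are therefore given with 12 arrays and with the 11 arrays left when it is removed. A gene is called where limma's adjusted p (Benjamini-Hochberg over all 17687 genes) is under 0.05. As a guide to background, 612 negative-control rows were used, whose 95th percentile lay between 6.91 and 7.36 on the 11 arrays and at 9.61 on Enza_Ctrl replicate 2. The luminal prostate markers fitted the labelled origin in part: 6 of 8 with a named row were above that percentile on all 11 arrays, KLK3 on 5 and KLK2 on none. No leukocyte marker of 13 and no endothelial marker of 6 was above it on all 11 arrays, and of 7 fibroblast markers COL1A2 was. The mean level of the leukocyte markers lay between 4.24 and 4.57 on the 11 arrays, with overlapping ranges in the 4 groups.

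**Figure D1:**
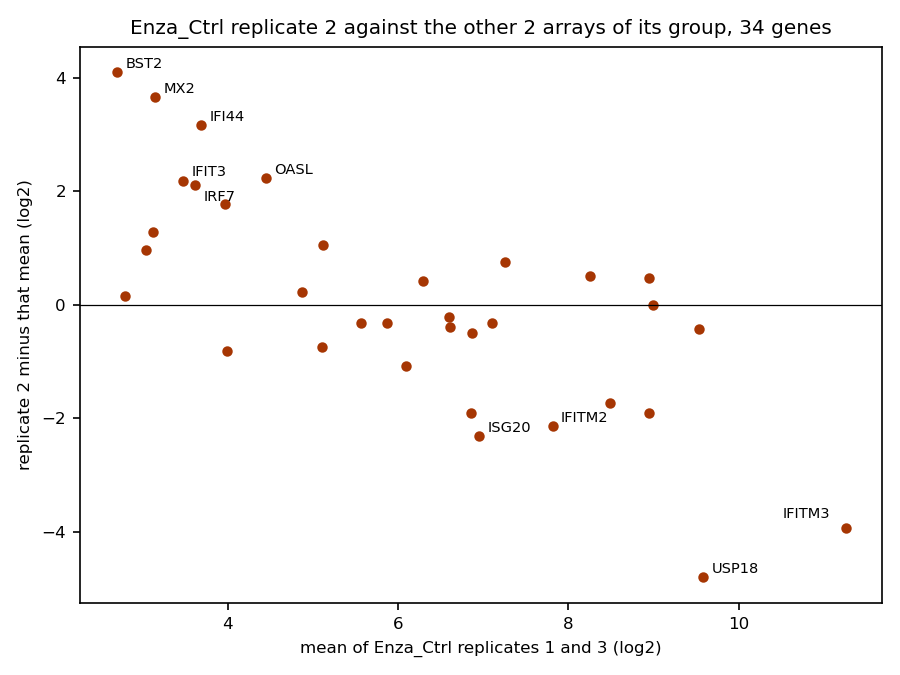
Each point is 1 of the 34 interferon response genes, with the mean of Enza_Ctrl replicates 1 and 3 on the x axis and the value of replicate 2 minus that mean on the y axis (both log2). Genes of low level lie mostly above 0 and genes of high level mostly below it, from 4.09 for BST2 to -4.80 for USP18.

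The members moved on that array in both directions. USP18, the protease that removes ISG15 from proteins, read 9.81 and 9.36 in Enza_Ctrl replicates 1 and 3 and 4.78 in replicate 2. BST2, which tethers budding virus to the cell surface, read 2.70 and 2.70 in replicates 1 and 3 and 6.80 in replicate 2. Of the 22 members under the lowest negative-control percentile on the other Enza_Ctrl arrays, 13 were higher in replicate 2, and of the 12 brighter members 9 were lower. Across the 34 genes the shift and the level correlated at r = -0.74 (rho = -0.68), and across all genes at r = -0.59 (rho = -0.66), which describes a single array against its own group. The mean of replicates 1 and 3 is both the level and the term subtracted in the shift, which favours a negative r.

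Many of the best known interferon-induced genes, among them ISG15, MX1, IFIT1 and RSAD2, read no higher than the upper range of the negative controls in either line. Of the 34 members, 17 (50%) were above the 95th percentile of the negative controls on none of the 11 arrays, and 9 (26.5%) were above it on all of them. Over all genes the shares were 49.1% and 42.8%. The 17 included the transcription factors IRF9 and IRF7, the RNA-binding proteins IFIT1 and IFIT2, their relative IFIT3, and OAS2 and OASL of the oligoadenylate synthetase family. The rest of the 17 were the antiviral GTPases MX1 and MX2, RSAD2 (viperin), BST2, SAMD9, XAF1, ISG15, IFI27, IFI44 and IFI44L. ISG15, for example, ranged from 5.27 to 6.22 on the 11 arrays and MX1 from 5.21 to 6.94. The 9 above on all arrays were IFIT5, OAS3, IFITM2, IFITM3, HERC6, USP18, PARP9, DTX3L and PARP14. The other 8 were above it on some: IFIH1, the cytosolic RNA sensor MDA5, on 7 arrays, OAS1 and IFITM1 on 6, IFI35 on 5, HERC5 and IFI6 on 4, and CMPK2 and ISG20 on 2. For OAS1 and IFITM1 these were the 6 arrays of LNCaPabl-Abi and no array of LNCaPabl-Enza.

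**Figure D2:**
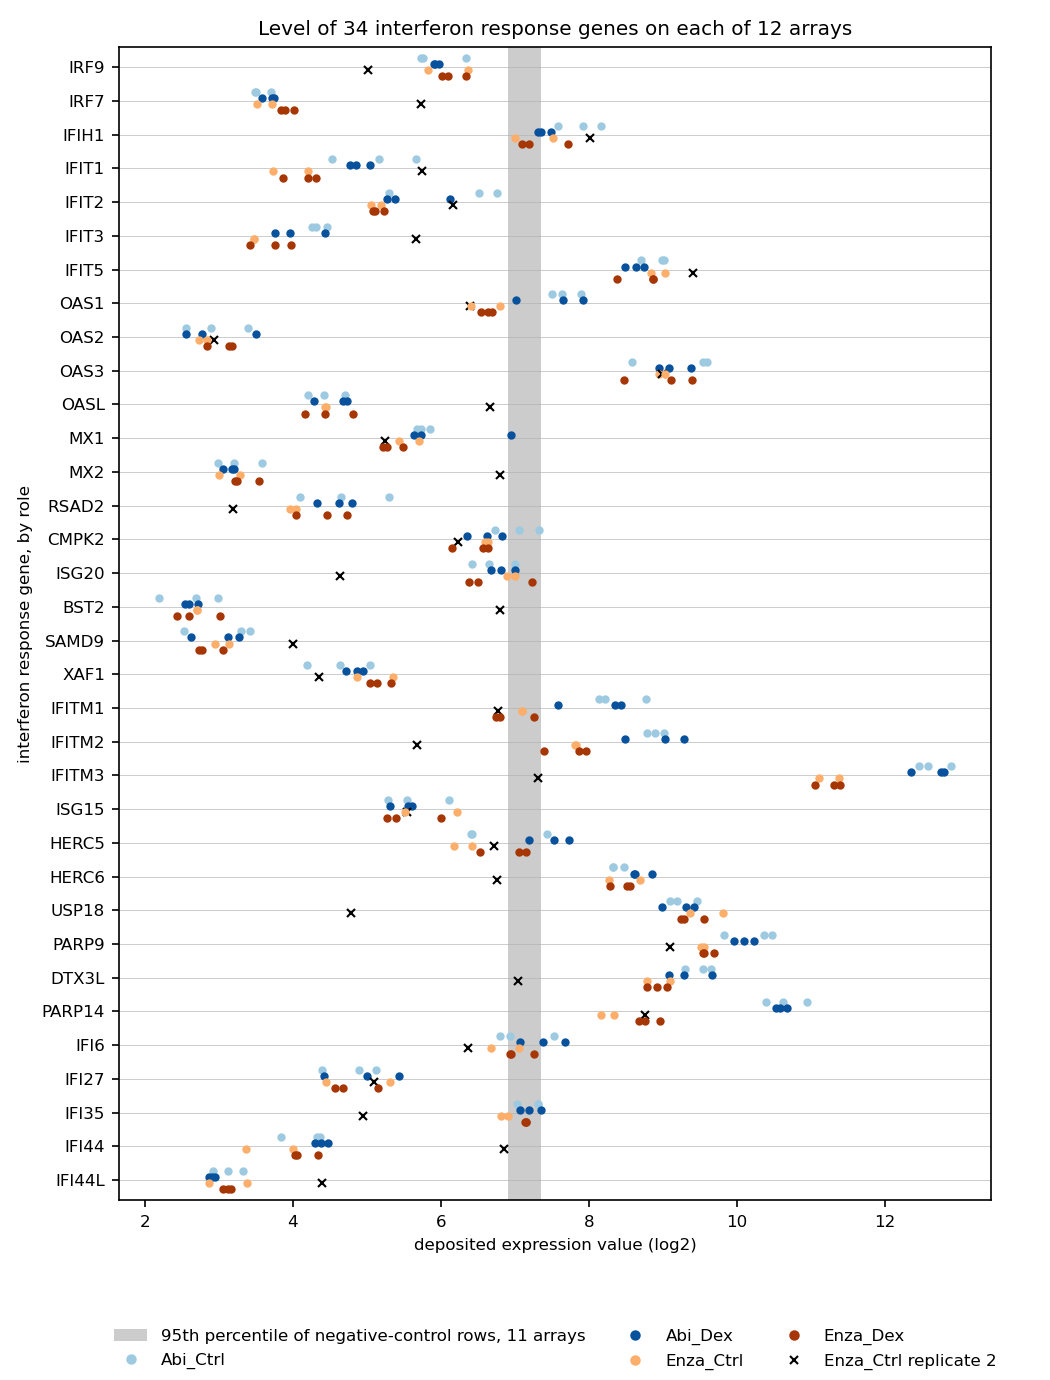
Deposited log2 value (x axis) of 34 interferon response genes (y axis, by role) on each array, with circles coloured by group, crosses for Enza_Ctrl replicate 2 and a grey band for the 95th percentile of negative-control rows on the 11 other arrays (6.91 to 7.36). On the 11 arrays, 17 genes stay under their array's percentile throughout and 9 stay above it.

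The comparison of the lines under DMSO asks how these genes differ at rest. PARP14 was lower in LNCaPabl-Enza (log2 difference -2.24 ± 0.23, SE) with 12 arrays, and with 11 arrays the 3 IFITM genes and OAS1 were called lower as well, with differences between -1.39 and -1.08. No member was called higher. With 12 arrays 1 of 34 members was called, against 0.209% of all genes called lower (0.266% in either direction). With 11 arrays 5 of 34 (14.7%) were called, against 0.956% lower (1.29% in either direction). The median difference of the 34 members was -0.35 with 12 arrays and -0.23 with 11, beside -0.03 and -0.00 over all genes, and 23 and 22 of the 34 differences were negative. In bulk RNA, fewer cells that express a gene and less of its RNA per cell cannot be told apart.

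Under dexamethasone the same comparison took its means from 6 other arrays and called the same members. Both comparisons share the estimate of the spread from the same fit, so the calls are not independent. PARP14 was called lower in LNCaPabl-Enza with 12 arrays, 1 of 34 members against 0.153% of all genes called lower (0.277% in either direction). With 11 arrays PARP14, IFITM1, IFITM2, IFITM3 and OAS1 were called lower, 5 of 34 (14.7%) against 1.53% lower (2.28% in either direction). These were the 5 genes called under DMSO, so the overlap was 5 of 5 in each list, where over all genes 130 genes called lower in both made up 76.9% of the list under DMSO and 48.1% of that under dexamethasone. The removed array is not in this comparison, and the larger count comes through the pooled spread: the median standard error of the members fell from 0.33 to 0.22. The median difference of the members was -0.15 in both fits, beside -0.01 over all genes, with 24 of 34 negative.

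Counted array by array, every LNCaPabl-Enza value lay under every LNCaPabl-Abi value, whatever the treatment, for 8 of 34 members with 11 arrays (23.5%), against 3.17% of all genes. These were IFIT1, IFIT2, OAS1, IFITM1, IFITM2, IFITM3, PARP9 and PARP14. No member had every Enza value above every Abi value, which 1.8% of all genes had. With 12 arrays IFIT1 and IFIT2 left the group, since both read high on Enza_Ctrl replicate 2. Within each treatment, groups did not overlap and Enza was lower for 14 members under DMSO with 11 arrays (41.2%, against 12.5% of all genes) and 10 with 12 arrays (29.4%, against 8.22%), and for none was Enza higher (in either direction 24% and 14.2% of all genes). Under dexamethasone it was 12 members (35.3%, against 10.7%), out of 17 whose groups did not overlap in either direction (50%, against 20.1%). The rest of the 17 were IRF9, IRF7, MX2, XAF1 and IFI44L, for which every Enza_Dex value was above every Abi_Dex value. Over all genes 3563 did not overlap, of which 1896 were lower in Enza and the rest higher. All members higher in Enza were above the percentile of the negative controls on 0 of the 11 arrays. The same held for IFIT1, IFIT2 and MX1 among the 12 lower in Enza. Across the 34 genes the differences under DMSO and under dexamethasone correlated at r = 0.88 (rho = 0.80) with 11 arrays, and at 0.66 (0.40) across all genes, with no array in common.

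**Figure D3:**
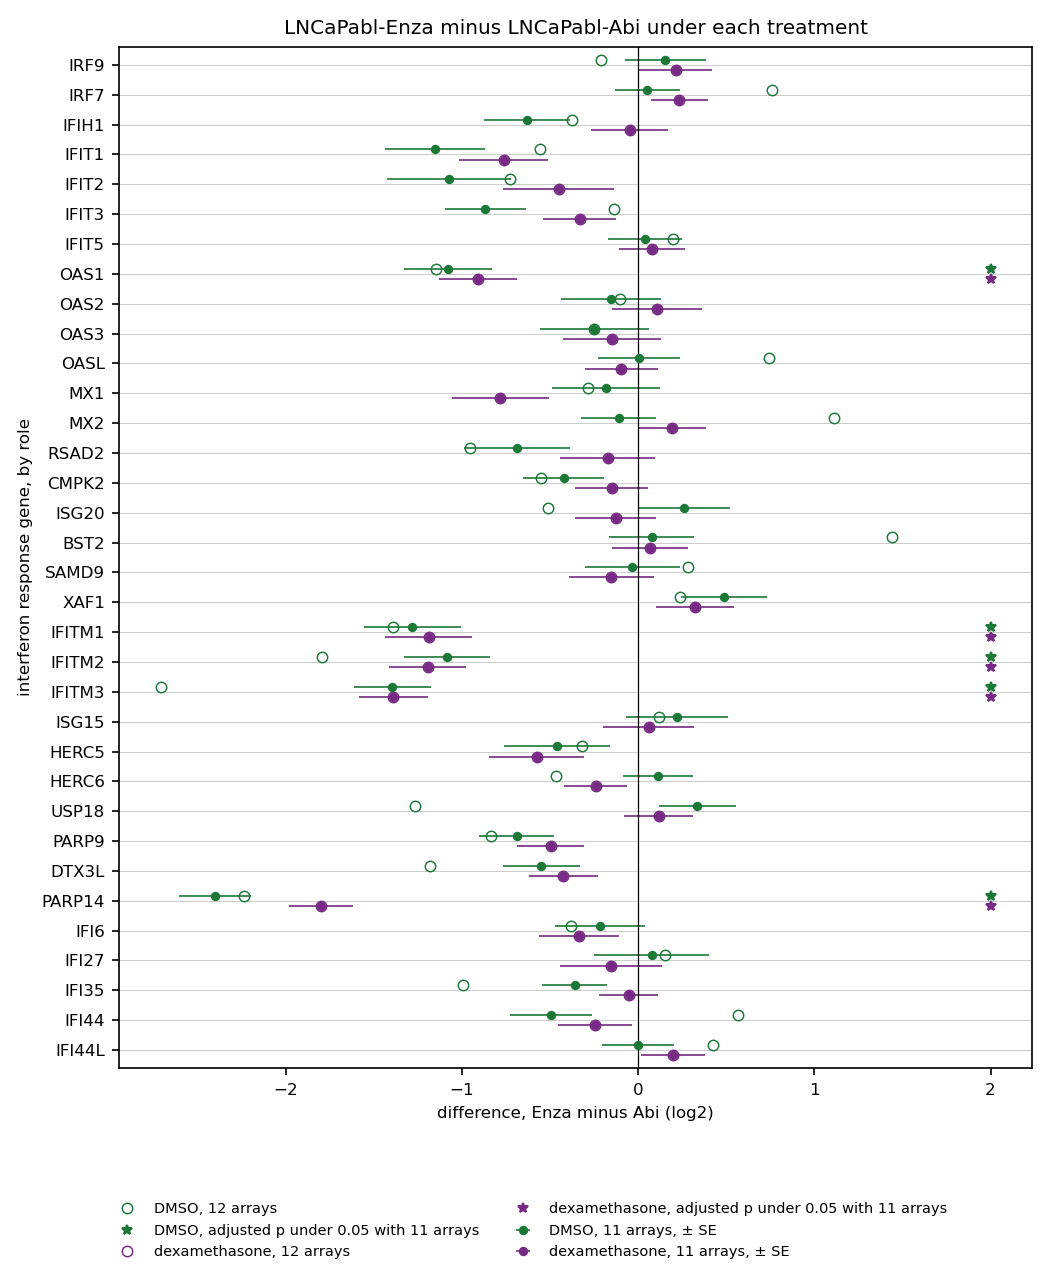
Difference between the lines (Enza minus Abi, log2, x axis) for each interferon response gene under DMSO (green) and dexamethasone (purple), as filled points with SE for 11 arrays and open points for 12. Stars mark adjusted p under 0.05 with 11 arrays: OAS1, the 3 IFITM genes and PARP14 under both treatments, all to the left of 0.

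PARP14, PARP9 and DTX3L lie in the same region of chromosome 3. PARP14 and PARP9 belong to the ADP-ribosyltransferase family, and PARP9 forms a complex with DTX3L, a ubiquitin ligase. PARP14 read 10.63, 10.40 and 10.94 in Abi_Ctrl, 10.53, 10.68 and 10.58 in Abi_Dex, 8.16, 8.76 and 8.35 in Enza_Ctrl and 8.96, 8.68 and 8.76 in Enza_Dex. Every Enza array was below every Abi array by more than 1 on the log2 scale, and Enza_Ctrl replicate 2 (8.76) lay with its line. Under DMSO the difference was -2.24 ± 0.23 (4.71-fold lower, limma adjusted p = 0.00213) with 12 arrays and -2.40 ± 0.20 (5.29-fold, adjusted p = 1.48e-05) with 11. Under dexamethasone it was -1.80 ± 0.23 (3.48-fold, adjusted p = 0.00889) and -1.80 ± 0.18 (adjusted p = 4.99e-05). With 12 arrays the call under DMSO was lost after quantile normalization anew (limma adjusted p = 0.143) and with only the compared groups in the fit (0.35). The call under dexamethasone with 12 arrays was lost after quantile normalization anew (limma adjusted p = 0.165), and without Abi_Dex replicate 1 (limma adjusted p = 0.0568), Abi_Dex replicate 2 (0.0687) or Enza_Dex replicate 2 (0.0712). From the 11 arrays, leaving out any further array kept both calls.

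PARP9 and DTX3L had smaller differences in the same direction, and neither was called. PARP9 read 9.83, 10.48 and 10.37 in Abi_Ctrl, 9.96, 10.24 and 10.10 in Abi_Dex, 9.56, 9.10 and 9.51 in Enza_Ctrl and 9.70, 9.56 and 9.55 in Enza_Dex. No Enza value reached an Abi value. With 11 arrays the difference was -0.69 ± 0.21 under DMSO (limma adjusted p = 0.172) and -0.50 ± 0.19 under dexamethasone (adjusted p = 0.285). With 12 arrays it was -0.83 ± 0.23 (adjusted p = 0.281) and -0.50 ± 0.23 (adjusted p = 1). DTX3L read 9.54, 9.30 and 9.65 in Abi_Ctrl, 9.29, 9.08 and 9.66 in Abi_Dex, 8.79, 7.05 and 9.10 in Enza_Ctrl and 9.05, 8.92 and 8.79 in Enza_Dex. Within each treatment its groups did not overlap, while Enza_Ctrl replicate 3 (9.10) was above Abi_Dex replicate 2 (9.08). Its difference under DMSO was -1.18 ± 0.44 with 12 arrays (adjusted p = 0.432) and -0.55 ± 0.22 with 11 (adjusted p = 0.328), so the size rests on Enza_Ctrl replicate 2. Under dexamethasone it was -0.42 ± 0.19 with 11 arrays (adjusted p = 0.416).

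**Figure D4:**
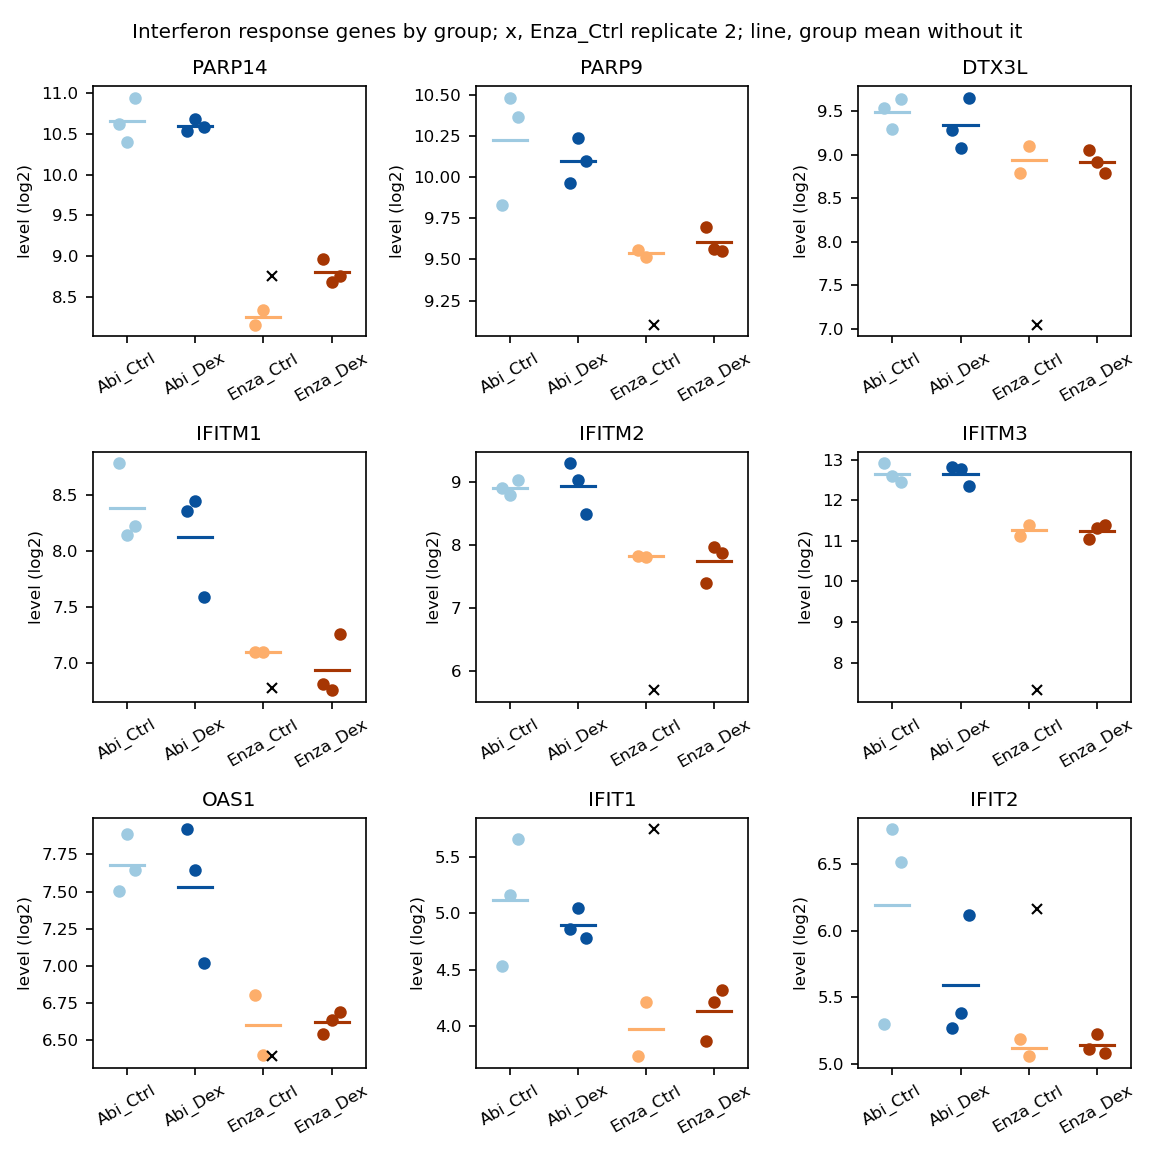
Level (log2, y axis, a separate range in each panel that does not start at 0) of 9 interferon response genes in the 4 groups, with 1 point per array, a line for the group mean without Enza_Ctrl replicate 2 and a cross for that array. PARP14 in Enza (8.16 to 8.96) is clear of Abi (10.40 to 10.94), and the cross leaves its group downwards for IFITM2, IFITM3 and DTX3L and upwards for IFIT1 and IFIT2.

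IFITM1, IFITM2 and IFITM3 are small membrane proteins that block the fusion of viruses with the cell, encoded close together on chromosome 11. Their transcripts are close copies of each other, and the probe sequences were not used here, so how far the 3 rows are independent was not tested. IFITM3 read 12.90, 12.58 and 12.46 in Abi_Ctrl, 12.80, 12.76 and 12.35 in Abi_Dex, 11.12, 7.32 and 11.39 in Enza_Ctrl and 11.05, 11.31 and 11.39 in Enza_Dex. The lines did not overlap, and Enza_Ctrl replicate 2 lay far under the other Enza arrays. With 12 arrays the difference under DMSO was -2.71 ± 0.81 (limma adjusted p = 0.314), and with 11 it was -1.39 ± 0.22 (2.63-fold lower, adjusted p = 0.00381). Under dexamethasone, where that array plays no part in the means, it was -1.39 in both fits, called with 11 arrays (adjusted p = 0.00102) and not with 12. From the 11 arrays, the call under DMSO was lost without Enza_Ctrl replicate 1 (adjusted p = 0.105), which leaves a single array in that group, and the call under dexamethasone was kept without any other array.

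IFITM1 and IFITM2 showed the same order of the lines. IFITM1 read 8.78, 8.14 and 8.22 in Abi_Ctrl, 8.35, 8.44 and 7.58 in Abi_Dex, 7.10, 6.77 and 7.10 in Enza_Ctrl and 6.81, 6.75 and 7.25 in Enza_Dex. The Enza values lay under the 95th percentile of the negative controls and the Abi values above it. With the Enza values set to that percentile, IFITM1 was 2.25-fold lower under DMSO and 1.82-fold lower under dexamethasone (11 arrays). These folds carry no sampling error. The 95% interval of the measured log2 difference with 11 arrays was -1.87 to -0.69 under DMSO and -1.71 to -0.66 under dexamethasone. On the measured values the difference was -1.39 ± 0.29 under DMSO with 12 arrays (limma adjusted p = 0.0978), -1.28 ± 0.28 with 11 (adjusted p = 0.0333), and -1.19 ± 0.25 under dexamethasone with 11 (adjusted p = 0.0176, and 0.207 with 12). IFITM2 read 8.90, 8.78 and 9.02 in Abi_Ctrl, 9.29, 9.03 and 8.49 in Abi_Dex, 7.82, 5.68 and 7.81 in Enza_Ctrl and 7.39, 7.96 and 7.87 in Enza_Dex. The lines did not overlap here either, and replicate 2 of Enza_Ctrl again lay lowest. Its difference was -1.80 ± 0.49 under DMSO with 12 arrays (adjusted p = 0.261), -1.09 ± 0.25 with 11 (2.12-fold lower, adjusted p = 0.0426), and -1.19 ± 0.22 under dexamethasone with 11 (2.29-fold lower, adjusted p = 0.00731, and 1 with 12).

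These calls were less firm than that of PARP14. From the 11 arrays, the call of IFITM1 under DMSO was kept without 6 of 11 further arrays and lost without Abi_Ctrl replicates 1 or 2, Enza_Ctrl replicates 1 or 3, or Enza_Dex replicate 1 (limma adjusted p 0.0505 to 0.246). Under dexamethasone it was kept without 7 and lost without Abi_Dex replicates 1 or 2 or Enza_Dex replicates 1 or 2 (0.097 to 0.102). The call of IFITM2 was kept without 3 of 11 arrays under DMSO (Abi_Dex replicates 1 and 3 and Enza_Dex replicate 1) and without 9 under dexamethasone, where it was lost without Abi_Dex replicate 1 (0.0545) or Enza_Dex replicate 1 (0.0573).

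OAS1 makes the oligoadenylates that activate the ribonuclease RNase L, and lies with OAS2 and OAS3 on chromosome 12. It read 7.50, 7.89 and 7.64 in Abi_Ctrl, 7.92, 7.65 and 7.02 in Abi_Dex, 6.80, 6.39 and 6.40 in Enza_Ctrl and 6.54, 6.63 and 6.69 in Enza_Dex. Every Enza value was under every Abi value, Enza_Ctrl replicate 2 included, and the Enza values lay under the 95th percentile of the negative controls. With the Enza values set to that percentile, OAS1 was 1.39-fold lower under DMSO and 1.2-fold lower under dexamethasone (11 arrays), without sampling error. The measured difference under DMSO was -1.15 ± 0.26 with 12 arrays (limma adjusted p = 0.131) and -1.08 ± 0.25 with 11 (adjusted p = 0.0496), and under dexamethasone -0.91 ± 0.22 with 11 (adjusted p = 0.0465, and 0.389 with 12). These are close to the threshold: each call was kept without only 2 of the 11 further arrays, Abi_Dex replicates 1 and 3 under DMSO and Abi_Ctrl replicate 2 and Abi_Dex replicate 3 under dexamethasone. The other members of the family were not called. OAS3 ranged from 8.47 to 9.59 on the 11 arrays, with the lines overlapping, and OAS2 and OASL were within the negative controls throughout.

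The IFIT genes encode a family of antiviral proteins, of which IFIT1 binds viral RNA and stops its translation. IFIT1 read 4.53, 5.16 and 5.66 in Abi_Ctrl, 4.86, 5.05 and 4.78 in Abi_Dex, 3.73, 5.75 and 4.21 in Enza_Ctrl and 3.87, 4.21 and 4.32 in Enza_Dex. IFIT2 read 5.30, 6.76 and 6.52 in Abi_Ctrl, 5.27, 5.38 and 6.12 in Abi_Dex, 5.19, 6.17 and 5.06 in Enza_Ctrl and 5.11, 5.23 and 5.08 in Enza_Dex. Without Enza_Ctrl replicate 2 both genes were lower in every Enza array, but all values on the 11 arrays lie under the 95th percentile of the negative controls. No fold or size of the difference between the lines is therefore given here. With 11 arrays the limma adjusted p under DMSO was 0.0695 for IFIT1 and 0.204 for IFIT2, and under dexamethasone 0.181 and 0.678. With 12 arrays the groups under DMSO overlapped, and neither gene was called. Without Abi_Ctrl replicate 1, where both genes read lowest in their group, both passed under DMSO from the 11 arrays (adjusted p = 0.0124 for each). IFIT3, also under that percentile on all 11 arrays, was not called under DMSO (limma adjusted p = 0.0969 with 11 arrays and 0.872 with 12), and IFIT5 ranged from 8.39 to 9.04 on the 11 arrays with the lines overlapping.

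The remaining members gave no call between the lines with 12 or 11 arrays. ISG15, the ubiquitin-like modifier, read 5.54, 6.11 and 5.28 in Abi_Ctrl and 6.22, 5.55 and 5.51 in Enza_Ctrl, which overlap. USP18 read 9.10, 9.19 and 9.46 in Abi_Ctrl, 9.32, 9.42 and 8.99 in Abi_Dex and 9.56, 9.24 and 9.29 in Enza_Dex, and the lines overlapped without Enza_Ctrl replicate 2. USP18 has a close genomic copy, USP41, whose RNA its probes may share. The ISG15 ligase HERC5 and its relative HERC6 overlapped between the lines under DMSO. Under dexamethasone HERC5 was lower in every Enza_Dex array than in any Abi_Dex array (-0.57 ± 0.27, limma adjusted p = 0.434 with 11 arrays). So was HERC6 (-0.24 ± 0.18, limma adjusted p = 0.707 with 11 arrays). The same held for MX1 (limma adjusted p = 0.218 with 11 arrays), whose values are all under the percentile of the negative controls. MX1 read 6.94 in Abi_Dex replicate 3 and between 5.21 and 5.85 on the other 10 arrays.

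Dexamethasone was compared with DMSO in each line to ask whether it changed these genes. In LNCaPabl-Abi no member was called with 12 or 11 arrays, where 0.0283% and 0.141% of all genes were called in either direction. With limma, 1 member had an unadjusted p under 0.05 with 12 arrays and 2 with 11 (HERC5 and IFIH1), beside 241 and 1254 of the 17687 genes, and the smallest adjusted p was 1 and 0.604. The differences ran from -0.60 (IFIT2) to 0.73 (HERC5) with a median of -0.04. IFIT2 was above the percentile of the negative controls on 0 of the 11 arrays. Groups did not overlap for 2 members (5.88%, against 12.3% of all genes): IFIH1 at -0.50 and HERC6 at 0.32. HERC5, the main ligase for ISG15, read 6.42, 7.44 and 6.41 in Abi_Ctrl and 7.20, 7.54 and 7.74 in Abi_Dex, and the groups overlapped because of Abi_Ctrl replicate 2. The 95% interval of the difference with 11 arrays was 0.16 to 1.31 for HERC5, -0.45 to 0.33 for PARP14 and -0.42 to 0.41 for IFITM3.

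In LNCaPabl-Enza no member was called by limma with 12 or 11 arrays, and 0% of all genes were called in either fit. No member had an unadjusted p under 0.05 with 12 arrays and 1 had with 11, beside 700 and 530 of the 17687 genes. With 12 arrays the differences ran from -1.38 (BST2) to 1.38 (USP18), the genes that Enza_Ctrl replicate 2 shifted most. With 11 arrays they ran from -0.31 (ISG15) to 0.62 (HERC5), and the medians were -0.02 and 0.02. BST2 and ISG15 were above the percentile of the negative controls on 0 of the 11 arrays. PARP14 had the smallest p with 11 arrays, at 0.55 ± 0.20 (95% interval 0.11 to 0.98, adjusted p = 1), since the 3 Enza_Dex arrays (8.68 to 8.96) lay above Enza_Ctrl replicates 1 and 3. With Enza_Ctrl replicate 2, which read 8.76, the groups overlapped and the difference was 0.38 ± 0.23. For IFITM3 the interval with 11 arrays was -0.47 to 0.46. Groups did not overlap for 6 members with 11 arrays (17.6%, against 15.9% of all genes in either direction), where Enza_Ctrl is replicates 1 and 3 alone. These were IRF7, RSAD2, HERC5, PARP14, IFI35 and IFI44, all higher with dexamethasone. Over all genes, 2805 of 17687 did not overlap, of which 1402 (7.93% of all genes) were lower with dexamethasone and the rest higher. Of the 6 members, IRF7, RSAD2 and IFI44 were above the percentile of the negative controls on 0 of the 11 arrays. With 12 arrays groups did not overlap for 2 members (5.88%, against 8.74%).

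**Figure D5:**
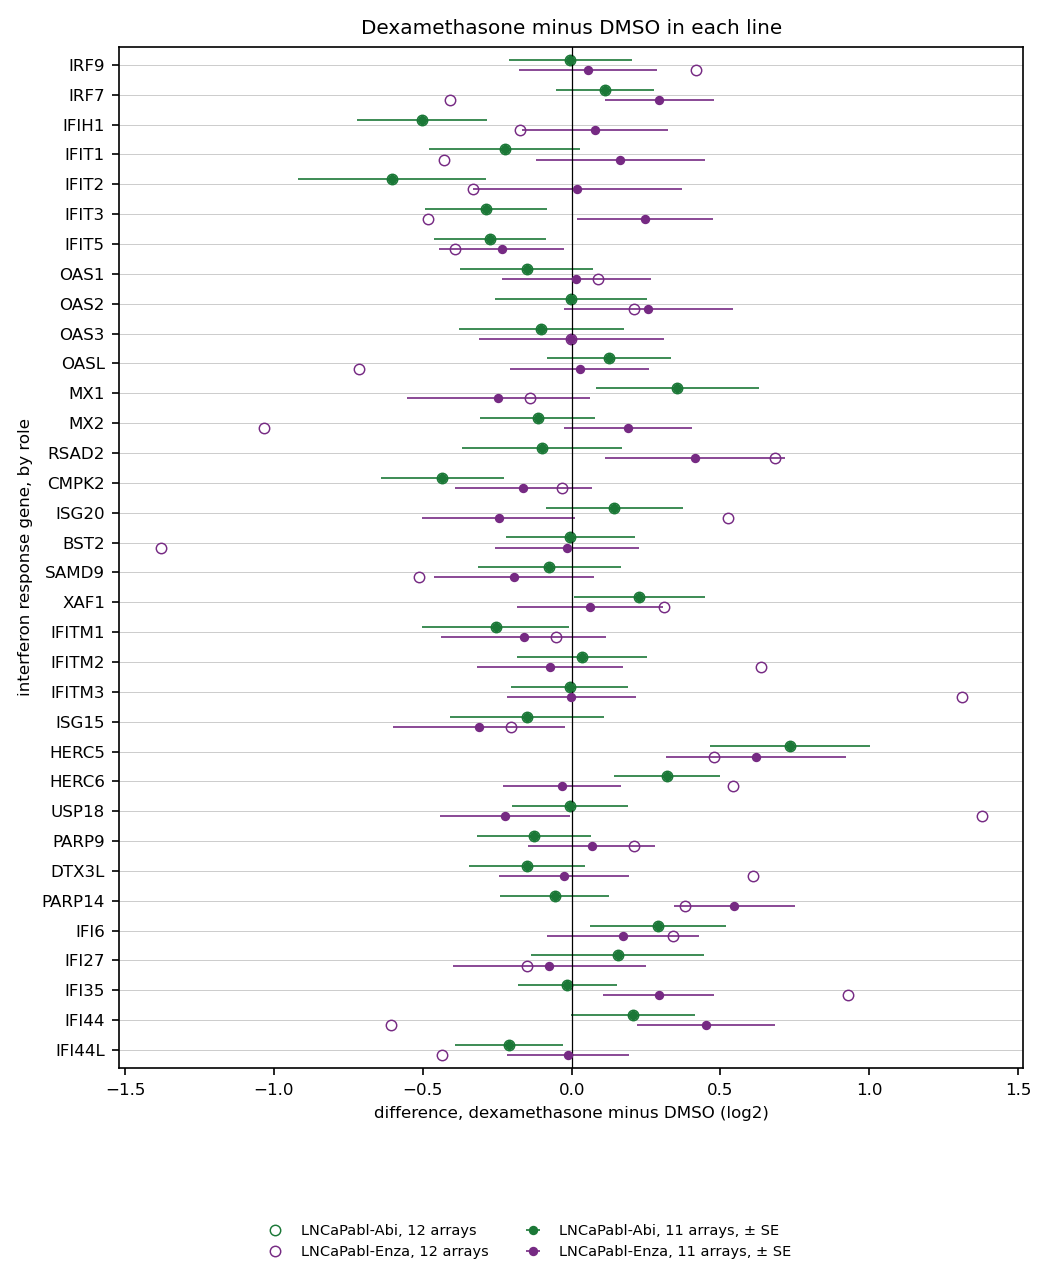
Difference between dexamethasone and DMSO (log2, x axis) for each interferon response gene in LNCaPabl-Abi (green) and LNCaPabl-Enza (purple), as filled points with SE for 11 arrays and open points for 12. No gene has an adjusted p under 0.05, and the open purple points far from 0, such as BST2 (-1.38) and USP18 (1.38), lie nearer to it when Enza_Ctrl replicate 2 is left out.

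The test of the difference between the responses (Enza minus Abi) called no member and 0% of all genes with 12 or 11 arrays by limma. At an unadjusted p under 0.05 there were 0 members and 266 genes with 12 arrays, and 1 member and 566 genes with 11. That member was PARP14, at 0.60 ± 0.27 (adjusted p = 0.999).

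The genes upstream of the members and other interferon-induced genes were counted in 7 lists with 103 measured genes. With 12 arrays none was called in any comparison, with 16 of 103 at an unadjusted p under 0.05 in limma for the lines under DMSO, 4 under dexamethasone, 1 for dexamethasone in LNCaPabl-Abi and 0 in LNCaPabl-Enza. Over all 17687 genes these counts were 1999, 733, 241 and 700. With 11 arrays 3 were called lower in Enza under DMSO (2.91%, beside 1.29% of all genes) and 4 under dexamethasone (3.88%, beside 2.28%). None was called higher, and none was called for dexamethasone in either line, with 4 and 2 at an unadjusted p under 0.05, beside 1254 and 530 of all genes. With 11 arrays the median difference between the lines was -0.08 under DMSO and -0.07 under dexamethasone.

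No interferon gene was above the negative controls: all 13 measured ligands were under the 95th percentile on each of the 11 arrays. IFNG had the smallest p among them for the lines under DMSO (limma adjusted p = 0.271 with 11 arrays). Of the 6 receptor subunits 4 were above it on all 11, and none was called. IFNGR2, part of the interferon gamma receptor, had the smallest p under DMSO with 11 arrays (-0.79, limma adjusted p = 0.0935). With 12 arrays the adjusted p of both was 0.432, and the values that follow are with 11 arrays unless stated. JAK1, the kinase shared by the interferon receptors, ranged from 4.82 to 5.97 and was above the negative controls on no array. Its difference between the lines was 0.18 ± 0.27 under DMSO (adjusted p = 0.869) and -0.45 ± 0.24 under dexamethasone (adjusted p = 0.525). PIAS1, an inhibitor of STAT signalling, had the smallest p of the kinases and brakes under DMSO (adjusted p = 0.412). STAT3, which cytokines of the interleukin-6 family activate, read 11.50, 11.20 and 11.39 in Abi_Dex against 10.28, 10.53 and 10.60 in Enza_Dex, a difference of -0.89 ± 0.17 (adjusted p = 0.0096, and 1 with 12 arrays). It read 10.60, 10.44 and 10.43 in Abi_Ctrl, and its difference between dexamethasone and DMSO in that line was 0.87 ± 0.17 (adjusted p = 0.0638).

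Among 15 nucleic acid sensors and adaptors, TLR3 and STING1 were called lower in LNCaPabl-Enza under both treatments with 11 arrays. TLR3, the endosomal receptor for double-stranded RNA, read 8.07, 7.63 and 7.72 in Abi_Ctrl, 8.43, 8.02 and 8.08 in Abi_Dex, 7.11, 7.32 and 6.28 in Enza_Ctrl and 6.68, 6.83 and 6.83 in Enza_Dex. The lines did not overlap, and the Enza values lay within the negative controls. With the Enza values set to the percentile of the negative controls, TLR3 was 1.52-fold lower under DMSO and 1.88-fold lower under dexamethasone (11 arrays). These folds carry no sampling error. The measured TLR3 difference with 11 arrays was -1.11 ± 0.25 under DMSO (limma adjusted p = 0.0399, and 0.335 with 12). Under dexamethasone it was -1.39 ± 0.22 (limma adjusted p = 0.00281, and 0.098 with 12). STING1, the adaptor for cytosolic DNA sensing, read 8.56 to 9.92 in Abi_Ctrl, 9.25 to 9.92 in Abi_Dex, 8.03, 9.66 and 7.42 in Enza_Ctrl and 7.90 to 8.15 in Enza_Dex. Enza_Ctrl replicate 2 (9.66) was the only Enza array within the Abi range. Without it the difference was -1.44 ± 0.33 under DMSO (adjusted p = 0.0472, and 0.436 with 12 arrays) and -1.49 ± 0.30 under dexamethasone (adjusted p = 0.0126, and 0.714 with 12).

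Of 40 further interferon-induced effectors, GBP3 was called, a guanylate-binding protein of the family that attacks intracellular pathogens. It read 10.03, 10.15 and 9.58 in Abi_Ctrl, 10.07, 9.62 and 9.44 in Abi_Dex, 8.28, 6.10 and 8.04 in Enza_Ctrl and 7.93, 8.43 and 7.77 in Enza_Dex. Every Enza array was below every Abi array on either treatment. With 11 arrays the difference was -1.76 ± 0.26 under DMSO (limma adjusted p = 0.00232, and 0.084 with 12) and -1.67 ± 0.23 under dexamethasone (adjusted p = 0.000925, and 0.422 with 12), and both calls with 11 arrays were kept without any further array. Among the 40 effectors, 9 differences between the lines were positive under DMSO and 15 under dexamethasone with 11 arrays. LY6E had the largest, 1.08 under DMSO and 0.36 under dexamethasone, and was not called. From the 11 arrays, TLR3 was kept without 3 further arrays of 11 under DMSO and without all 11 in turn under dexamethasone, STING1 without 2 and 8, and STAT3 without 9 under dexamethasone. The class I antigen presentation genes, 8 of 15 of which were above the negative controls on all 11 arrays, gave no call, and B2M, the light chain of the class I molecule, had the smallest p under DMSO (-0.78 with 11 arrays, adjusted p = 0.134, and 0.229 with 12). The other interferon regulatory factors gave none either, with IRF8 at the smallest p under DMSO with 11 arrays (adjusted p = 0.818).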

How the data were processed

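Total RNA was labelled with the WT PLUS kit and hybridised to 12 arrays, per the labels' protocols. Each deposited value is on a log2 scale, for a transcript cluster on an array. Affymetrix Expression Console, RMA and limma are the tools in the submitters' processing notes. The sources used here do not give the summarisation options or annotation build. The values ran from 1.66 to 18.63, a wide range for RMA, so fold changes are on the deposited scale.

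Of 24351 rows, 2903 were controls (counted by row name) and 17709 had a symbol. The brightest row per symbol was kept (20 genes had several, none a member), giving 17687 genes. Groups and replicate numbers came from the titles. limma 3.58.1 in R 4.3.3 (statmod 1.5.0) fitted 4 group means with lmFit and eBayes to 12 arrays, and to 11 without Enza_Ctrl replicate 2. Gene p-values were adjusted by Benjamini-Hochberg over all genes. The code was tested on simulated data. The files hold no depth, and the number of arrays limits the precision.

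The members and lists were chosen with earlier results of these data known. A member is described in full if called in a comparison, or if its groups did not overlap and differed by at least 1 on the log2 scale, and other members by range and counts. Other members whose values are given singly were chosen after these were seen. Of each pathway list up to 4 called genes per comparison are named, or that with the smallest p, and JAK1 always. LY6E was added after its values were seen. The use of negative controls as a background level was chosen after seeing the data. Alternatives were leaving out arrays, a replicate block, quantile normalization, a filter on the dimmest 25% of genes, fitting only the compared groups, trended robust eBayes, array weights and all rows.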

Additional observations from a re-analysis of the deposited data

How the results depend on the processing

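Calls of members depended on the set of arrays and on how the spread was pooled. For the lines under DMSO, where 1 of 34 members was called with 12 arrays, the count was 4 with array weights, 0 after quantile normalization and 0 with only the compared groups in the fit. Leaving out 1 array in turn gave 1 to 5, with 5 without Enza_Ctrl replicate 2. From the 11 arrays it was 2 with only the compared groups and 3 after quantile normalization, and 1 to 5 without a further array. Under dexamethasone, from 1 called, the count was 5 with array weights, 0 after quantile normalization, 5 with only the compared groups, and 0 to 5 without 1 array (0 without Abi_Dex replicate 1, Abi_Dex replicate 2 or Enza_Dex replicate 2). From the 11 arrays it was 5 with only the compared groups, 4 after quantile normalization and 2 to 5 without a further array. The filter on dim genes, trended robust eBayes and all rows kept both counts within 1.5 times. The count for dexamethasone in each line and for the difference of responses was 0 under every alternative run. PARP14 lost its call under DMSO after quantile normalization (limma adjusted p = 0.143) and with only the compared groups (0.35), and under dexamethasone after quantile normalization (0.165). The alternatives on 11 arrays, apart from the plain fit and the block, were chosen after seeing the data. No named difference that was called changed direction.

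The replicate numbers do not state a shared batch, and the deviations of same-numbered arrays correlated at a median r of 0.08 with 12 arrays (-0.04 to 0.30) and 0.13 with 11, beside -0.03 and -0.06 for arrays of different number. With the replicate block the counts were 1 and 1 for the lines with 12 arrays, and 4 and 5 with 11 arrays. With the block and 11 arrays under DMSO, IFITM2 and OAS1 were not called and IFIT1 was, beside PARP14, IFITM1 and IFITM3. Under dexamethasone the same 5 genes were called with the block as without it. Arrays have no read depth; 17 of 34 members lay within the negative controls, where a difference in RNA may not be detectable.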
